A study of Mus musculus with 10 samples.

Results

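Doxorubicin, an anthracycline drug that leads to DNA breaks through topoisomerase II, was given to RAW264.7 cells, and 10 genes that rose clearly with it are described here: Trp53inp1, Phlda3, Inka2, Psrc1, Ercc5, Zfp365, Ak1, Traf4, Sulf2 and Sbsn. They are 10 of the 22186 genes in the deposited table, found by symbol, and they were picked because their values in these same libraries were higher with doxorubicin. Their difference between the groups is therefore given as a description, without a test. RAW264.7 is a mouse macrophage-like line from a virus-induced tumour, labelled as wild type and as tumour tissue. The 2 groups are 5 libraries of cells kept for 24 h in medium with doxorubicin and 5 libraries of cells kept in medium, numbered 1 to 5 in each group. The dose is uncertain: the titles give 10 nM, the design text 100 nM with a correction of the samples to that value, and the stated dilution of the stock comes to 1000 nM. The doxorubicin came in dimethyl sulfoxide, and no solvent is named for the medium cultures. Whether same-group libraries are separate cultures is not stated, and p-values then cover only the spread between these libraries, which may be technical.

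When DNA is broken, the transcription factor p53 is stabilised and raises a set of genes that halt the cell cycle, repair DNA or lead to cell death. Cdkn1a and Mdm2 are its best known targets. Most of the 10 genes have been described as p53 targets in human or mouse cells, but they are studied far less. Their products are a regulator of p53 and autophagy (Trp53inp1), a brake on the survival kinase AKT (Phlda3), an inhibitor of the kinase PAK4 (Inka2), a microtubule and spindle protein (Psrc1), a DNA repair endonuclease (Ercc5), a protein linked to replication and telomere stability (Zfp365), an enzyme that balances adenine nucleotides (Ak1), a signalling adaptor (Traf4), an extracellular sulfatase (Sulf2) and a protein secreted by the epidermis (Sbsn).

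Promoter sequences from RefSeq (build GRCm38.p6, 250 bases before to 50 after each annotated start) were found for 9 of the 10 genes, as 15 windows of which the 2 of Psrc1 overlap; Trp53inp1 was not matched. The sequences are shown because the 10 genes were picked for a rise with the same drug. The consensus half-site of p53, searched on both strands, was present in 1 of the 15 windows, the second start of Inka2, against 8.36% of all 32851 windows and 6.70% of the 10292 windows of the genes tested. A full p53 site has a pair of such half-sites. In Inka2 it begins 81 bases before the start, and is in capitals here (chr3:105705208-105705507, plus strand).
Inka2: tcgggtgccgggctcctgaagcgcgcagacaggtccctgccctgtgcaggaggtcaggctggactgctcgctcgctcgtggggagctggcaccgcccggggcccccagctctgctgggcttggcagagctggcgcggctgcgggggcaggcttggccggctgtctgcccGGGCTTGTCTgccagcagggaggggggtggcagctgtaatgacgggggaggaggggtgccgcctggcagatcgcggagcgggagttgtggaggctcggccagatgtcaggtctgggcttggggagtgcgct
The promoter of Phlda3 is shown with its 3 GC boxes (GGGCGG on either strand) in capitals, 54 and 33 bases before and 18 bases after the start (chr1:135765835-135766134, plus strand).
Phlda3: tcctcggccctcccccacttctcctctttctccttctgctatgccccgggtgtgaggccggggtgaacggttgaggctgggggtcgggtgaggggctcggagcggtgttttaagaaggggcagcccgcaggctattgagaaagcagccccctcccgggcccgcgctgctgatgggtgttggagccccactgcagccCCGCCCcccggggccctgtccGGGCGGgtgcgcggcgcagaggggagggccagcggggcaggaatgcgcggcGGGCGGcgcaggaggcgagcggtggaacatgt
The first window of Psrc1 is shown with its CCAAT boxes (CCAAT on either strand), 241 and 41 bases before the start, and a GC box 17 bases after it in capitals (chr3:108383554-108383853, plus strand).
Psrc1: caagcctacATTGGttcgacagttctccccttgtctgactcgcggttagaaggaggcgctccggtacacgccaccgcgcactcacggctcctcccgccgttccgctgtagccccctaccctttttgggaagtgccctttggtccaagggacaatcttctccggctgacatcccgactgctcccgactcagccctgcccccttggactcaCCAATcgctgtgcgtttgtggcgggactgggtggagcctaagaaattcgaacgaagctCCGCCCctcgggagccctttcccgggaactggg
A GC box was present in windows of 6 of the 9 genes (8 of 15 windows), against 64.2% of windows of the genes tested. CCAAT was present in 5 of 15 windows, against 38.0%, and the TATA box letters TATAAA in 4 of 15 (Ak1, Inka2, Sulf2 and Zfp365), against 6.52%. The cell cycle element TTTGAA was present in 3 of 15 (Ercc5, Sbsn and Traf4), against 12.2%. Matches were counted anywhere in a window on either strand, and the TATAAA of Zfp365 began 185 bases before the start. A match is a description of these letters and not a site shown to be used.

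Levels are FPKM, fragments per kilobase of transcript scaled to the mapped fragments of the library, as the authors deposited them; their sums ran from 338293 to 356111 per library, and the depth behind them is unknown. Differences are those of log2(FPKM + 1), and for a rise they are smaller than the true log2 ratio, the more so the lower the level. This touches genes above 1 FPKM too. With a pseudocount of 0.1 in place of 1, the difference of Traf4 was 1.12 against 0.88, and that of Psrc1 0.94 against 0.91. Differences of genes at unlike levels are therefore not on one footing. The 2 libraries of number 1 stood apart from the other 8: their Pearson correlations with the others ran from 0.937 to 0.982, against 0.976 to 0.998 among the 8, and the ferritin gene Fth1 took 3.88% of the FPKM sum in doxorubicin 1 and 5.21% in medium 1, against 2.14% to 2.47% in doxorubicin 2 to 5 and 2.14% to 2.56% in medium 2 to 5. All 10 macrophage markers examined had a mean of at least 1 FPKM, and their summed level was 1931 to 2172 FPKM with doxorubicin and 1830 to 2033 FPKM in medium. Of the other marker lists, neutrophil genes had 1 of 6 members at 1 FPKM or more (sum 0.871 to 1.49 FPKM with doxorubicin, 0.583 to 1.74 in medium). Fibroblast, lymphocyte, endothelial and erythroid genes had 0, with sums of at most 0.290 FPKM with doxorubicin and 0.242 FPKM in medium.

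All 10 genes had their 5 doxorubicin libraries above their 5 medium libraries, as had 2.73% of the 9869 genes tested, those averaging 1 FPKM or more over the 10 libraries. The 10 were chosen on this contrast, so nothing is read from that count. All 10 passed the filter on low values, Inka2 only through its doxorubicin libraries. In bulk RNA, more RNA per cell and more cells that make it cannot be told apart.

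**Figure D1:**
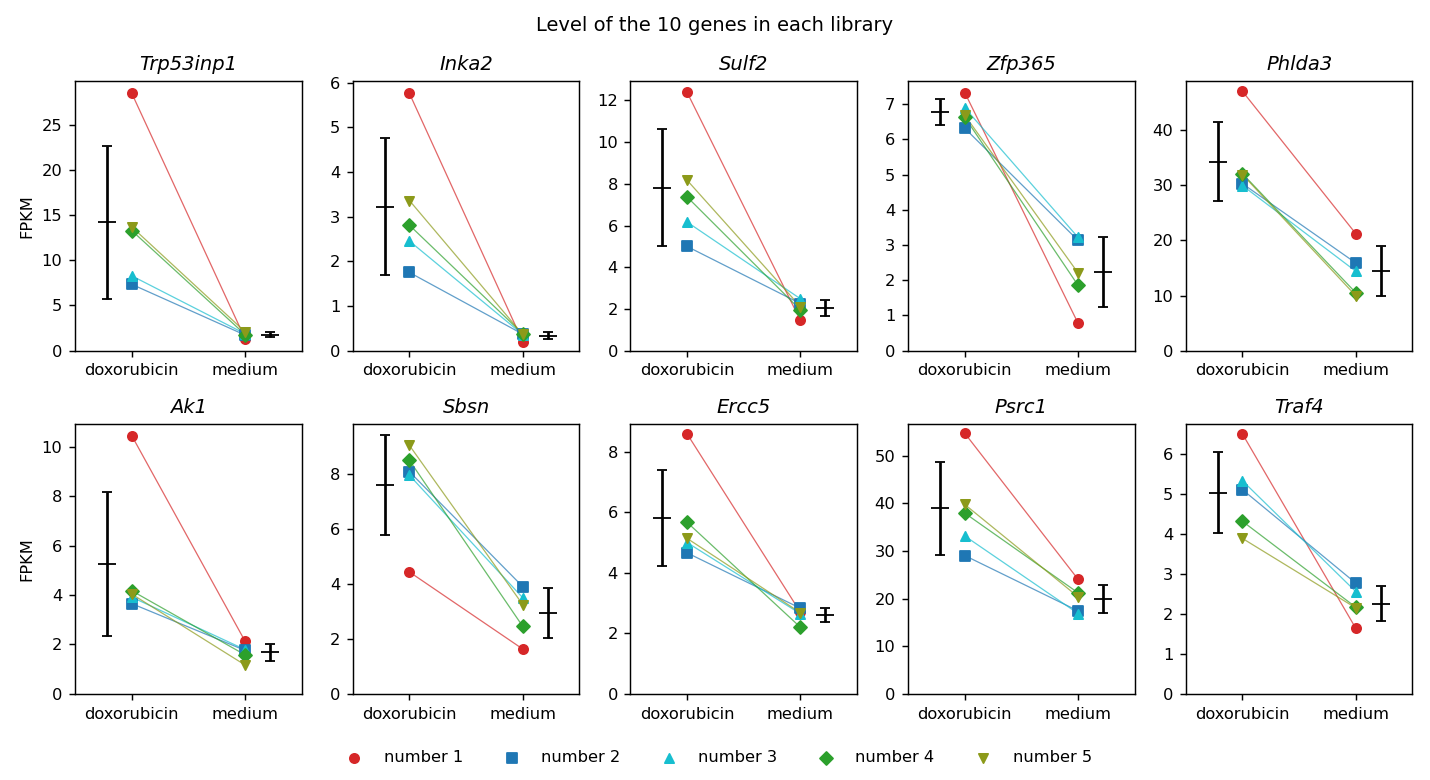
FPKM of the 10 genes in each library (y axis from 0), doxorubicin left of medium, with lines joining libraries of the same replicate number and black bars for mean and SD (n = 5). Every line falls towards medium, and doxorubicin 1 (red circles) is the highest doxorubicin library for 9 of the 10 genes, the exception being Sbsn.

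Trp53inp1 encodes a nuclear protein that binds p53 and the kinase HIPK2 and that also takes part in autophagy. It had 28.4, 7.34, 8.28, 13.3 and 13.7 FPKM in doxorubicin 1 to 5, against 1.32, 1.73, 1.87, 1.79 and 2.09 FPKM in medium 1 to 5. The medium libraries were alike, with a coefficient of variation of 16.0%, while the doxorubicin libraries fell into 3 levels, number 1 above numbers 4 and 5 and these above numbers 2 and 3. Means were 14.2 ± 8.46 FPKM with doxorubicin and 1.76 ± 0.282 FPKM in medium (SD, n = 5 each), a ratio of 8.07 and a difference of 2.31. The lowest doxorubicin library was 3.50 times the highest medium library. Its relative Trp53inp2 stood at 3.81 ± 1.06 FPKM with doxorubicin and 2.58 ± 0.612 FPKM in medium (0.42, limma adjusted p = 0.187; 0.00363 with replicate number as a block), and Trp53 itself at 99.2 ± 14.4 and 102 ± 20.2 FPKM in the same order (-0.02, limma adjusted p = 0.959).

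Phlda3 encodes a small protein with a pleckstrin homology domain that competes with AKT for membrane lipids. Its levels were 47.0, 30.3, 29.9, 32.1 and 31.9 FPKM in doxorubicin 1 to 5, against 21.2, 15.9, 14.4, 10.5 and 9.96 FPKM in medium 1 to 5. Number 1 was the highest library in both groups, and the other 4 doxorubicin libraries lay within 29.9 to 32.1 FPKM although their medium counterparts ranged from 9.96 to 15.9. The ratio of means was 2.38 and the difference 1.22. Of its family, Phlda1 was at 0.549 ± 0.243 FPKM with doxorubicin and 0.575 ± 0.357 FPKM in medium (n = 5 each), below the filter, and Phlda2 was listed at 0 in all 10 libraries.

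Inka2, once named Fam212b, had 5.76, 1.75, 2.45, 2.81 and 3.36 FPKM in doxorubicin 1 to 5, against 0.203, 0.370, 0.362, 0.378 and 0.363 FPKM in medium 1 to 5. It had the lowest level of the 10 genes in both groups and the largest ratio of means, 9.62, with a difference of 1.60. With a pseudocount of 0.1 its difference was 2.84, the largest of the 10 on that scale. The lowest doxorubicin library was 4.63 times the highest medium library. Inka1, its relative, was at 10.3 ± 1.70 FPKM with doxorubicin and 8.34 ± 1.52 FPKM in medium (0.28, limma adjusted p = 0.299), and Pak4, the kinase both proteins inhibit, at 4.59 ± 0.586 and 4.99 ± 0.509 FPKM in the same order (-0.10, limma adjusted p = 0.590).

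Psrc1, also known as Dda3, had the highest level of the 10 genes in both groups. It stood at 54.7, 29.0, 33.1, 37.9 and 39.7 FPKM in doxorubicin 1 to 5, against 24.0, 17.4, 16.9, 21.2 and 20.4 FPKM in medium 1 to 5. Numbers 1, 4 and 5 were above numbers 2 and 3 in both groups. Its ratio of means, 1.95, was the smallest of the 10, and its difference was 0.91. The gap between the groups was narrow, with the lowest doxorubicin library 1.21 times the highest medium library.

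Ercc5 encodes the XPG endonuclease, which cuts the damaged strand in nucleotide excision repair. It had 8.59, 4.66, 5.00, 5.67 and 5.14 FPKM in doxorubicin 1 to 5, against 2.69, 2.83, 2.65, 2.20 and 2.68 FPKM in medium 1 to 5. The medium libraries had the smallest spread of the 10 genes, 9.17% of the mean, and doxorubicin 1 was the highest library. Ercc5 had a ratio of means of 2.23 and a difference of 0.89.

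Zfp365, the mouse counterpart of human ZNF365, had 7.33, 6.32, 6.89, 6.63 and 6.68 FPKM in doxorubicin 1 to 5, against 0.778, 3.13, 3.22, 1.85 and 2.21 FPKM in medium 1 to 5. Here the doxorubicin libraries were nearly level, with a coefficient of variation of 5.53%, the smallest of the 10, and the medium libraries were spread, at 44.9%, the largest. The ratio within a number thus ran from 2.02 in number 2 to 9.42 in number 1. The difference of means was 1.33.

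Ak1 encodes the cytosolic adenylate kinase. It had 10.4, 3.65, 3.91, 4.17 and 4.04 FPKM in doxorubicin 1 to 5, against 2.13, 1.76, 1.79, 1.58 and 1.17 FPKM in medium 1 to 5. Doxorubicin 1 was far above the other 4, which lay within 3.65 to 4.17 FPKM. The ratio of means was 3.11 and the difference 1.13; without both libraries of number 1 the difference was 0.95. St6galnac6, a sialyltransferase gene that lies within 1000 bases of Ak1 in the RefSeq annotation, stood at 15.1 ± 1.44 FPKM with doxorubicin and 12.5 ± 2.48 FPKM in medium (n = 5 each).

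Traf4, an adaptor of the tumour necrosis factor receptor-associated family, had 6.51, 5.11, 5.34, 4.32 and 3.89 FPKM in doxorubicin 1 to 5, against 1.64, 2.77, 2.56, 2.17 and 2.15 FPKM in medium 1 to 5. In both groups numbers 4 and 5 were below numbers 2 and 3, unlike most of the 10 genes with doxorubicin. The ratio of means was 2.23 and the difference 0.88. Nek8, a kinase gene within 1000 bases of Traf4 in that annotation, was at 1.39 ± 0.266 FPKM with doxorubicin and 1.72 ± 0.214 FPKM in medium (n = 5 each).

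Sulf2 encodes an enzyme that removes sulfate groups from heparan sulfate outside the cell. It had 12.4, 5.00, 6.17, 7.37 and 8.17 FPKM in doxorubicin 1 to 5, against 1.45, 2.26, 2.49, 1.95 and 2.11 FPKM in medium 1 to 5. Its doxorubicin libraries followed the order seen for Trp53inp1, Inka2 and Psrc1, highest in number 1 and lowest in number 2. Doxorubicin 1 was the highest for 9 of the 10 genes and doxorubicin 2 the lowest for 7. Medium 1 was the lowest medium library of Sulf2. The ratio of means was 3.81 and the difference 1.49. Sulf1, the other gene of this enzyme family, was listed at 0 in all 10 libraries.

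Sbsn encodes suprabasin, known from the upper layers of the epidermis. It had 4.43, 8.08, 7.95, 8.49 and 9.03 FPKM in doxorubicin 1 to 5, against 1.63, 3.90, 3.49, 2.45 and 3.24 FPKM in medium 1 to 5. Number 1 was the lowest library in both groups, and doxorubicin 1 was 1.14 times the highest medium library. Its mean was 2.58 times that in medium, a difference of 1.13. Of its neighbours in the epidermal gene cluster, Krtdap was listed at 0 in all 10 libraries and Dmkn was at 0.354 ± 0.178 FPKM with doxorubicin and 0.130 ± 0.123 FPKM in medium (n = 5 each). None of 10 keratinocyte and epithelial markers reached a mean of 1 FPKM, 6 of them, among them Krt5 and Krt14, were listed at 0 in all libraries, and the summed level was 0.461 to 0.722 FPKM with doxorubicin and 0.294 to 0.612 FPKM in medium. Gapdhs, which overlaps Sbsn in the RefSeq annotation, was at 0.280 ± 0.0364 FPKM with doxorubicin and 0.289 ± 0.115 FPKM in medium (n = 5 each).

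FPKM values are scaled by length, so the 10 levels can be ordered. With doxorubicin the order of means was Psrc1, Phlda3, Trp53inp1, Sulf2, Sbsn, Zfp365, Ercc5, Ak1, Traf4 and Inka2, and each gene's range of libraries overlapped that of the next except between Phlda3 and Trp53inp1. In medium the order was Psrc1, Phlda3, Sbsn, Ercc5, Traf4, Zfp365, Sulf2, Trp53inp1, Ak1 and Inka2, with ranges apart between Phlda3 and Sbsn and between Ak1 and Inka2. Trp53inp1 was thus the eighth in medium and the third with doxorubicin.

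Within each replicate number, all 10 genes were higher with doxorubicin, in 50 of 50 within-number differences. With the groups apart for all 10 genes, no other count was possible. The genes were picked on this contrast, so nothing is read from the count or from the medians being above 0. The median of the 10 differences was 1.69, 0.85, 0.96, 1.44 and 1.25 in numbers 1 to 5, while the median over all 9869 genes tested lay between -0.07 and 0.02. The number 1 difference was the largest of the 5 for 8 genes, the exceptions being Phlda3 and Sbsn. For 8 genes the differences in numbers 4 and 5 were both larger than those in numbers 2 and 3, the exceptions being Psrc1 and Traf4. The share of all genes tested with either pattern was not counted, so neither count is read as particular to the 10.

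**Figure D2:**
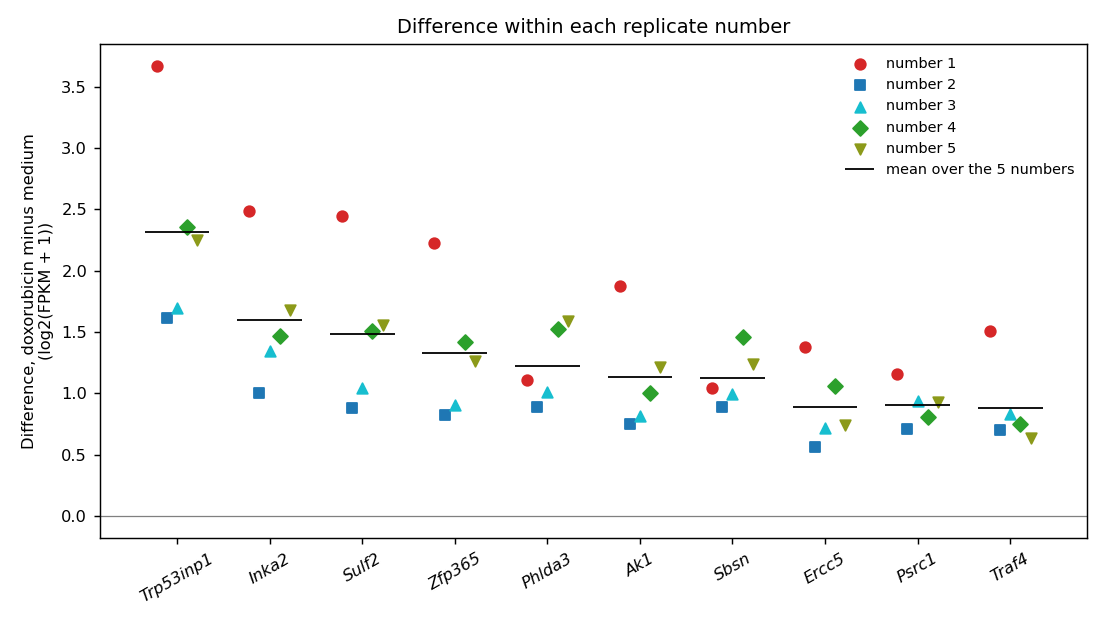
Difference of log2(FPKM + 1), doxorubicin minus medium, within each replicate number for the 10 genes; the black line is the mean of the 5. All 50 points lie above 0, from 0.56 (Ercc5, number 2) to 3.67 (Trp53inp1, number 1).

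How the difference varies over replicate numbers was tested across all 9869 genes with limma interaction terms. It was not itself used to pick the genes, but the same values were. A large difference has more room to vary, and few of the genes tested differed between the groups (68 higher and 22 lower by limma). The shares of all genes given here and below are thus not those of genes with differences of like size. Counts of such calls are not read as particular to the 10. The number 1 libraries, and the sets 2 with 3 and 4 with 5, are known to stand apart from earlier results on these same values, and the tests treat the libraries of a set as independent. Number 1 has 1 library in each group, so its test, with or without the block, takes the spread from numbers 2 to 5. That the number 1 libraries vary like those is assumed. Trp53inp1 differed by 3.67 in number 1 and by 1.98 on average in numbers 2 to 5 (difference of differences 1.69, SE 0.40, limma adjusted p = 0.0654). The corresponding values were 2.49 and 1.37 for Inka2 (1.12, SE 0.27, limma adjusted p = 0.0726), 2.45 and 1.25 for Sulf2 (1.20, SE 0.28, limma adjusted p = 0.0630), and 2.23 and 1.10 for Zfp365 (1.13, SE 0.27, limma adjusted p = 0.0704). Ak1 passed the threshold of 0.05, with 1.87 in number 1 and 0.95 in numbers 2 to 5 (0.92, SE 0.19, limma adjusted p = 0.0466). Ercc5 (0.61, SE 0.17, limma adjusted p = 0.101), Traf4 (0.78, SE 0.22, limma adjusted p = 0.104) and Psrc1 (0.31, SE 0.24, limma adjusted p = 0.531) had estimates above 0, and Phlda3 (-0.14, SE 0.29, limma adjusted p = 0.847) and Sbsn (-0.10, SE 0.23, limma adjusted p = 0.860) below 0. So 1 of the 10 genes was larger in number 1 at the threshold, against 1.47% of all genes tested, and 0 were smaller, against 0.618%. With replicate number as a block, 7 of the 10 were (the 5 first named, Ercc5 and Traf4, limma adjusted p between 0.00599 and 0.0478), against 10.1% of all genes; leaving aside Inka2, which reached the filter only through its doxorubicin libraries, 6 of the other 9 were. The Ak1 call was lost in 7 of the 8 fits that left out a library of numbers 2 to 5, all but the fit without medium 5.

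The number 1 libraries reached these differences in different ways. For Trp53inp1, Inka2 and Sulf2, doxorubicin 1 was 2.67, 2.22 and 1.85 times the mean of doxorubicin 2 to 5, and medium 1 was 0.707, 0.551 and 0.660 times the mean of medium 2 to 5. For Zfp365 these ratios were 1.11 with doxorubicin and 0.299 in medium, so the medium library carried the larger share. For Ak1 (2.65 and 1.35) and Psrc1 (1.56 and 1.27) number 1 was high in both groups, more so with doxorubicin. For Ercc5 (1.68 and 1.04) number 1 was high only with doxorubicin, as medium 1 (2.69 FPKM) was below medium 2 (2.83 FPKM). Phlda3 was shifted up alike in both groups (1.51 and 1.67), and Sbsn down alike (0.528 and 0.498). The part of the state of the number 1 libraries in these values was not tested.

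In numbers 4 and 5 the doxorubicin libraries lay above both those of numbers 2 and 3 for 8 of the 10 genes, and the medium libraries lay below for 6. These counts were not made over all genes tested, so they are not read as particular to the 10. The difference was 2.30 in numbers 4 and 5 and 1.65 in numbers 2 and 3 for Trp53inp1 (difference of differences 0.65, SE 0.11, limma adjusted p = 0.0273), and 1.56 and 0.95 for Phlda3 (0.61, SE 0.08, limma adjusted p = 0.0113). These 2 of 10 passed, both larger in numbers 4 and 5, against 0.730% of all genes tested in that direction and 1.56% in either. With the block, Sulf2 (0.57, SE 0.13; limma adjusted p = 0.0694 without and 0.0190 with the block) and Zfp365 (0.47, SE 0.11; 0.0645 without and 0.0406 with the block) passed as well, 4 of 10 against 2.52%. Inka2 (0.40), Sbsn (0.41), Ak1 (0.33) and Ercc5 (0.26) had estimates above 0 that missed the threshold in both fits. Psrc1 (0.05) and Traf4 (-0.07) missed it too. The Phlda3 call was lost without doxorubicin 4, medium 2 or medium 5, and the Trp53inp1 call in 7 of 8 such fits, all but the fit without doxorubicin 3.

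**Figure D3:**
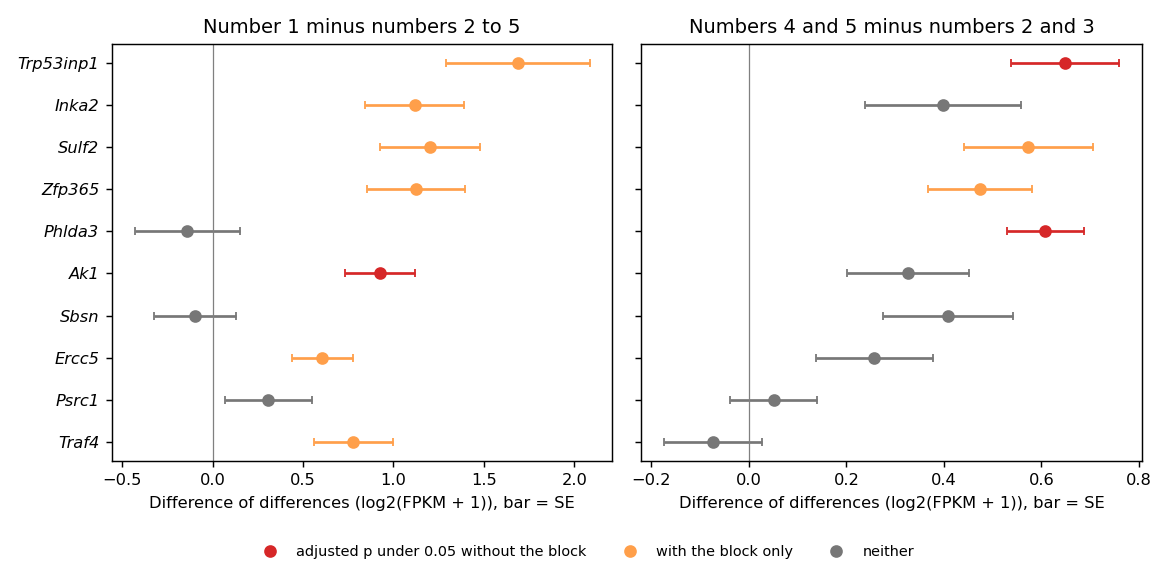
How the doxorubicin minus medium difference varied over replicate numbers, for the 10 genes (x axis, difference of differences of log2(FPKM + 1); bars, limma SE). Left, number 1 against numbers 2 to 5, from 1.69 for Trp53inp1 to -0.14 for Phlda3; right, numbers 4 and 5 against numbers 2 and 3, from 0.65 for Trp53inp1 to -0.07 for Traf4; colours give the calls without and with the replicate block.

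Co-variation was described by correlating each gene's deviations from its group mean of log2(FPKM + 1) over the 10 libraries. These libraries share replicate numbers and 2 of them stand apart, so the coefficients are given without p-values and again without number 1. Of the 45 pairs, 33 correlated above 0, with a median Pearson r of 0.49 (median Spearman rho 0.31) and a range from -0.80 to 0.97. Pairs of other genes were not examined, and libraries of the same number deviated together over all genes. The count and the medians are therefore not read as particular to the 10. By Pearson r over 10 libraries, Trp53inp1, Inka2 and Sulf2 moved most closely. The values were 0.97 for Trp53inp1 with Inka2, 0.95 for Trp53inp1 with Sulf2 and 0.96 for Inka2 with Sulf2. In the 8 libraries of numbers 2 to 5 these pairs were at 0.88, 0.87 and 0.92. Their Spearman rho over 10 libraries was 0.77, 0.79 and 0.78, below the 0.81 of Phlda3 with Ak1. Phlda3 and Ak1 had a Pearson r of 0.76 over 10 libraries and 0.81 without number 1. Ak1 and Ercc5 correlated at 0.90 over 10 libraries and at 0.26 without number 1, so that relation rested on number 1. Sbsn ran against Psrc1 (-0.80) and Ak1 (-0.75) over 10 libraries; without number 1 these were -0.27 and 0.31. Phlda3 and Zfp365 were at -0.28 over 10 libraries and at 0.89 without number 1. Traf4 correlated at 0.36 with Trp53inp1 over 10 libraries and at -0.81 without number 1, and at -0.06 and -0.88 with Psrc1.

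**Figure D4:**
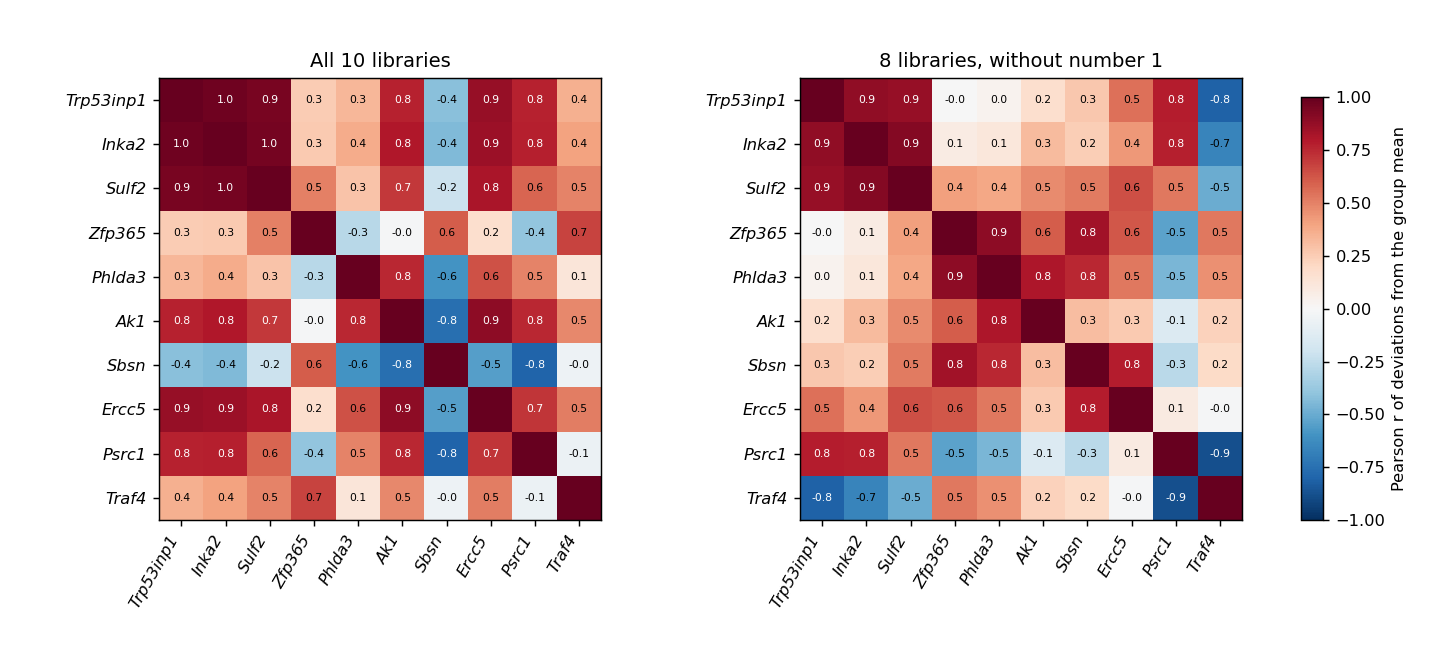
Pearson r between the 10 genes of deviations from the group mean of log2(FPKM + 1), over all 10 libraries (left) and over the 8 libraries of numbers 2 to 5 (right). Trp53inp1, Inka2 and Sulf2 stay between 0.87 and 0.97 in both panels, while Sbsn and Traf4 change sign with several genes.

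The genes most like each of the 10 by the same measure, among the genes tested, are given next, with 1 gene for each of the 10 except Psrc1, which has 2; they were picked as the highest coefficients. Sulf2 was closest to Ccng1, the cyclin G1 gene (r = 0.985; 0.96 without number 1), which stood at 113 ± 32.6 FPKM with doxorubicin and 36.9 ± 5.49 FPKM in medium. Inka2 was closest to Cpt1c, a carnitine palmitoyltransferase gene (0.97; 0.92 without number 1; 2.80 ± 1.09 FPKM with doxorubicin, 0.746 ± 0.120 FPKM in medium). Ercc5 was closest to Homer3, a scaffold protein gene (0.99; 0.93 without number 1; 3.53 ± 1.03 FPKM with doxorubicin, 1.63 ± 0.126 FPKM in medium). Zfp365 was closest to Pros1, the protein S gene (0.996; 0.98 without number 1), Trp53inp1 to Hacd2, a fatty acid elongation gene (0.98; 0.97), and Psrc1 to Glipr2 (0.99; 0.98) and Itm2b (0.99; 0.99). Phlda3 was closest to Cstb, the cystatin B gene (0.98; 0.94), Sbsn to Cav1, the caveolin gene (0.98; 0.86), Ak1 to Nt5dc2 (0.97; 0.75) and Traf4 to Dffb, a nuclease gene (0.96; 0.90). The measure takes out the group means, so such a gene need not differ between the groups: Dffb was at 3.14 ± 0.430 FPKM with doxorubicin and 3.16 ± 0.466 FPKM in medium.

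Other targets of p53 give the setting of these genes. Of 38 tested members of a list of 40 known p53 targets outside the 10, 9 were higher with doxorubicin and 0 lower, and 29 did not pass (limma, adjusted p under 0.05), against 0.689% of all genes higher. With the replicate block, 21 were higher and 1, the growth arrest gene Gadd45a, was lower, against 7.81% and 13.7% of all genes. At an unadjusted p under 0.05 in the fit without the block, 19 of the 38 were higher and 2 lower, against 6.62% and 11.2% of all genes. Cdkn1a, the p21 gene, stood at 147 ± 37.3 FPKM with doxorubicin and 51.0 ± 4.87 FPKM in medium (1.48, SE 0.14, limma adjusted p = 0.00466). The growth inhibitor gene Tob1 stood at 19.4 ± 2.53 and 7.58 ± 1.88 FPKM in the same order (1.28, limma adjusted p = 0.00776). Ccng1 (1.56), the phosphatase gene Ptp4a3 (1.02), the death-domain receptor gene Eda2r (0.99), Mdm2 (0.99), the RNA-binding protein gene Zmat3 (0.87), Ei24 (0.85) and the TRAIL receptor gene Tnfrsf10b (0.49) also passed. Eda2r, at 2.34 ± 0.554 FPKM with doxorubicin and 0.685 ± 0.325 FPKM in medium, reached the filter only through its doxorubicin libraries, and its call was lost with a pseudocount of 0.1 (limma adjusted p = 0.0638, and 0.00471 to 0.0886 over all settings); the other 8 calls do not rest on such a gene. The median difference of the 38 was 0.31, beside -0.03 over all genes tested. With any 1 library left out, Cdkn1a, Ccng1 and Tob1 kept their calls, and the other 6 lost them in 4 to 8 of 10 such fits. Without both libraries of number 1, 17 of the 38 were higher, against 2.87% of all genes. For 11 of the 38 the difference was larger in number 1 at the threshold, against 1.47% of all genes, and for 17 with the block, against 10.1%.

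**Figure D5:**
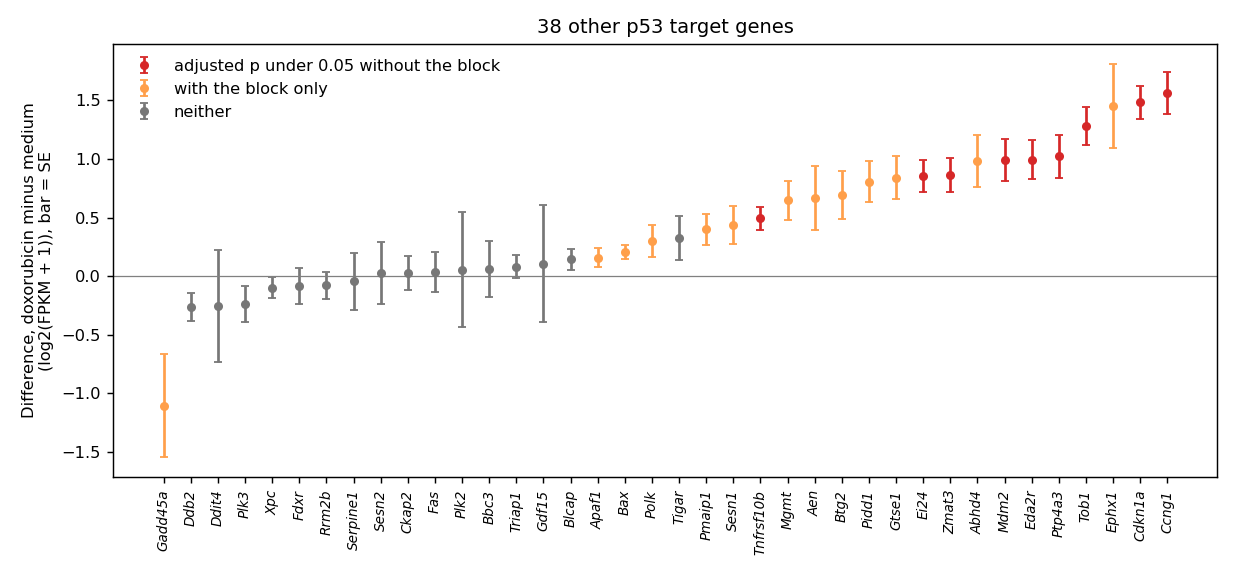
Difference of log2(FPKM + 1), doxorubicin minus medium, for the 38 tested p53 target genes outside the 10 (points, estimate; bars, limma SE), coloured by their call. The 9 genes that passed without the block run from 0.49 (Tnfrsf10b) to 1.56 (Ccng1), and Gadd45a, at -1.11, passed as lower with the block.

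Genes whose products work with or are related to the 10 mostly did not pass. Of 89 tested genes in 10 partner and family lists (118 listed, 2 of them also p53 targets), 0 were higher and 1 lower (limma), against 0.912% of all genes in either direction; at an unadjusted p under 0.05, 7 of the 89 were higher and 11 lower, against 6.62% and 11.2%. The blocked fit called 8 higher and 9 lower, against 7.81% and 13.7% of all genes, 21.6% in either direction. Of the 25 excision repair genes that work beside Ercc5, 0 were higher (median -0.05), and genes called with the block included the lesion recognition gene Ddb1 (0.19), which was higher, and Gtf2h4 (-0.26) and the ligase gene Lig1 (-0.18), which were lower.

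Of 13 tested heparan sulfate genes beside Sulf2, 0 passed (median 0.07), and with the block the sulfotransferase genes Ndst1 (0.25) and Ndst2 (0.30) and the syndecan gene Sdc1 were higher and the chain synthesis genes Ext2 (-0.22) and Glce (-0.46) lower. Sdc1 stood at 43.6 ± 5.19 FPKM with doxorubicin and 29.5 ± 7.44 FPKM in medium (0.58, limma adjusted p = 0.116; 0.00392 with the block). Of 9 genes around Trp53inp1, 0 passed (median 0.10), and with the block Trp53inp2 and the autophagy gene Gabarapl2 (0.27) were higher. Of 5 tested adenylate and creatine kinase genes 0 passed (median 0.10), and with the block Ak3 (0.29) and Ckb (0.46) were higher. Of 14 spindle genes 0 passed (median -0.07), and with the block Ska1 (-0.38) and Ckap5 (-0.29) were lower. Of 6 AKT pathway genes 0 passed (median -0.05), and with the block Pdpk1 (-0.17) was lower. Among 6 tested genes listed around Zfp365, not all of them genome stability genes, 0 passed (median -0.06), and with the block Rad50 (-0.19) was lower. Of 6 PAK pathway genes (median 0.09) and 5 other TRAF genes (median -0.16), 0 passed in either fit. None of 8 epidermal genes reached the filter. Over these lists, 0 of the 89 genes had a larger difference in number 1 at the threshold, against 1.47% of all genes, and 2 differed between numbers 4 and 5 and numbers 2 and 3, Glce (-0.62) and Traf2 (-0.41), against 1.56%.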

How the data were processed

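mRNA for 10 libraries was captured with oligo(dT), broken up and copied from random primers, per the labels' protocols. The authors deposited 1 table of FPKM values with 1 column per library, matched to libraries through the names given in their descriptions. Per the submitters' processing notes the build was GRCm39; aligner, quantifier and annotation are not given in the sources used here, nor whether counting used strand. Read totals are not in the FPKM values, and steps of whole reads were not found among them (ratios of 599 low values between medium 2 and medium 3 put at most 0.835% in any narrow bin), so no counting interval is given.

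Values were analysed as log2(FPKM + 1) for the 9869 of 22186 genes averaging 1 FPKM or more, with limma 3.58.1 in R 4.3.3, with terms for group alone, the trend option on and p-values adjusted by Benjamini-Hochberg over all genes, called at 0.05. The interaction fits added number 1 against numbers 2 to 5, or, over 8 libraries, numbers 4 and 5 against numbers 2 and 3. The fits were tested on simulated data with independent noise in each library and planted changes larger than the interaction estimates of the 10 genes. The real libraries share deviations, so that test does not show how the fits behave here. The 10 genes and the lists were chosen with earlier results of these data known. Named outside the 10 are p53 targets and partner genes past the threshold, close relatives, overlapping genes and those most alike. The 1 partner gene past the threshold is counted but not reported here. Genes within 1000 bases, genes called with the replicate block, Traf2, Trp53 and Pak4 were named after their values were seen.

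Same-numbered libraries of the 2 groups deviated together (r = 0.79, 0.70, 0.67, 0.52 and 0.55 for numbers 1 to 5). Unlike numbers did so about as closely within 2 and 3 (0.69 and 0.59) and within 4 and 5 (0.51 both ways), so numbers are not told apart from these sets. Each same-number r was above 0.1, so blocked values, with the number as a term, stand beside results that they change. Alternatives were a pseudocount of 0.1, no filter, quantile normalization, the block, and leaving out libraries. Coordinates are those of the RefSeq promoter table and its build; none are given for the FPKM values.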

Additional observations from a re-analysis of the deposited data

Results flagged for a closer look

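Ak1 had a difference larger by 0.92 in number 1 than in numbers 2 to 5 by the limma interaction test. Trp53inp1 and Phlda3 had differences larger by 0.65 and 0.61 in numbers 4 and 5 than in numbers 2 and 3 by the same kind of test. These calls were lost in 8 of 12 other settings for Ak1, 8 of 12 for Trp53inp1 and 4 of 12 for Phlda3. The number 1 estimates of Trp53inp1 (1.69), Sulf2 (1.20), Zfp365 (1.13) and Inka2 (1.12) were larger than that of Ak1. They missed the threshold without the block.

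Of 20 sets of 5 libraries examined (10 genes in 2 groups), 5 held a library far from the other 4 by Dixon's criterion on the log2(FPKM + 1) scale, where chance flags about 1 in 20 sets. Doxorubicin 1 was high for Phlda3 (47.0 FPKM) and Ak1 (10.4 FPKM) and low for Sbsn (4.43 FPKM). Medium 1 was low for Inka2 (0.203 FPKM), and medium 4 was low for Ercc5 (2.20 FPKM). 4 of the 5 were libraries of number 1, which stood apart over all genes too.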

How the results depend on the processing

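All 10 genes, which were picked on this contrast, kept groups without overlap with quantile normalization. Leaving out libraries cannot make groups that are already apart overlap, so those settings decide nothing on it. None of the 10 differences changed sign under any setting tried. For all settings but quantile normalization, that too was fixed by the groups being apart. Their sizes moved by more than the spread between libraries with a pseudocount of 0.1 for Inka2 (2.84 against 1.60), Sulf2 (1.83 against 1.49), Zfp365 (1.70 against 1.33) and Traf4 (1.12 against 0.88).

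With the replicate block, 771 genes were higher and 1356 lower, against 68 and 22 without it, and all 90 calls were kept. The block raised the p53 targets higher to 21 (from 9), the partner and family genes to 17 (from 1), the 10 genes larger in number 1 to 7 (from 1) and those unlike in numbers 4 and 5 and numbers 2 and 3 to 4 (from 2). Without both libraries of number 1, 283 genes were higher and 273 lower, 17 p53 targets were higher and 8 partner genes passed. With no filter 2 partner genes passed and 0 of the 10 genes differed between numbers 4 and 5 and numbers 2 and 3. Quantile normalization called 4 of the 10 in each interaction test. With a pseudocount of 0.1 the 1 gene larger in number 1 was Zfp365 in place of Ak1. With 1 library left out, genes higher ran from 15 (without medium 4) to 136 (without medium 1), genes lower from 0 (without medium 4 or doxorubicin 4) to 90 (without medium 1), p53 targets higher from 3 to 15, partner genes from 0 to 4, and the 10 genes called by the interaction tests from 0 to 2 and from 0 to 4; a lone library left in a set is assumed to vary like the others. The causes were not tested.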
